A study of Homo sapiens with 4 samples.

Results

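Fibronectin and the integrin subunits that form its receptors were followed in human CD31+ cells with and without overexpression of the transcription factor HAND1. The set holds 10 genes of the 58229 kept from the deposited table, chosen by gene symbol with earlier results of these data known. It comprises the ligand gene FN1, the alpha subunit genes ITGA4, ITGA5, ITGA8, ITGA9 and ITGAV, and the beta subunit genes ITGB1, ITGB5, ITGB6 and ITGB8. The comparison was between HAND1_OE and Control, and between the ligand and its receptor subunits.

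Fibronectin is a secreted dimeric glycoprotein of the extracellular matrix. Cells bind it through integrins, membrane receptors made of an alpha and a beta chain, and pull it into fibrils that carry other matrix proteins. In the embryo fibronectin and its main receptor, integrin alpha5beta1, are needed for mesoderm and blood vessels to form. Integrins alpha8beta1 and the alphav integrins also bind the Arg-Gly-Asp (RGD) loop that alpha5beta1 uses, whereas alpha4beta1 and alpha9beta1 bind other sites in segments of the protein that are alternatively spliced.

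All 4 libraries came from H1, a human embryonic stem cell line, and were made from total RNA of CD31+ cells at day 8 of hematopoietic differentiation, induced with activin A and BMP4 and then with VEGF and bFGF. The Control group held 2 libraries without HAND1 overexpression and the HAND1_OE group 2 libraries with it. How HAND1 was overexpressed, from which promoter, and whether the cells were 1 clone are not given in the sources used here, nor is it stated that the replicates were separate cultures, so p-values measure only the spread between these libraries.

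The binding sites for the different receptors are encoded by different exons of FN1, and they are shown because the receptor genes below divide by the site they bind. In transcript FN1-203 of GENCODE 29, which has 46 exons and encodes 2477 residues, the RGD codons lie in exon 30 at chr2:215384063-215384071 (GRCh38, minus strand). The codons of the Leu-Asp-Val (LDV) site, bound by alpha4beta1, lie in exon 40 at chr2:215372311-215372319. Those of the EDA site, in a segment bound by alpha4beta1 and alpha9beta1, lie in exon 33 at chr2:215380944-215380964. Each stretch is coding sequence, read from the reference sequence of that transcript, and the capitals mark the codons of the site.
RGD: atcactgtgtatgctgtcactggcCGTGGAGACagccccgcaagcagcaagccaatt
LDV: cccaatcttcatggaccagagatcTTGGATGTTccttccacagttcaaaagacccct
EDA: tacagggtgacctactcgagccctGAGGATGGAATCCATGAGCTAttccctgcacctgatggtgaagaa
The RGD site is present in 11 of the 13 coding transcripts annotated for FN1, the LDV site in 7 and the EDA site in 5. The deposited values are 1 per gene, so they do not show which of these sites the FN1 RNA of a library carried.

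Expression is given in FPKM, a fragment count corrected for how long the transcript is and for library size, so that levels of different genes can be compared per length. FPKM holds no counts, so the depth is unknown. The values of a library summed to between 536284 and 606609 FPKM, and between 13989 and 14542 genes had at least 1 FPKM. HAND1 stood at 12.1 and 14.3 FPKM in the pair of Control libraries and 521 and 517 FPKM in the HAND1_OE pair, in the direction of the labels. PECAM1, which encodes the sorted antigen CD31, was 95.5 and 141 FPKM in Control and 92.0 and 160 FPKM in HAND1_OE. None of the 7 endothelial markers tested was called (1 lower at an unadjusted p under 0.05 in limma). The endothelial markers summed to between 1183 and 1335 FPKM in Control and between 1168 and 1280 FPKM in HAND1_OE. Of 4 pluripotency markers 2 were tested and none was called (1 lower at an unadjusted p under 0.05 in limma). All 6 blood markers tested fell, among them HBZ, an embryonic globin gene, and GATA1, an erythroid and megakaryocytic transcription factor. The summed FPKM of the 7 blood markers was 140 and 209 in Control and 15.4 and 13.7 in HAND1_OE, with PTPRC, the pan-leukocyte marker, at or near 0 throughout. Of 7 mesenchyme markers tested, PDGFRB, the PDGF receptor beta gene, and LUM, a matrix proteoglycan gene, rose (by unadjusted p under 0.05 in limma, 5 stood higher and 1 stood lower). The list did not move as 1, since the fibrillar collagen gene COL1A2 stood lower without being called, at 154 and 141 FPKM in Control and 68.6 and 101 FPKM in HAND1_OE, and COL1A1 was also lower in both HAND1_OE libraries. The summed FPKM of the 8 mesenchyme markers was 808 and 731 in Control and 1107 and 1123 in HAND1_OE, with DCN, another matrix proteoglycan gene, between 0.180 and 1.72. Most of the difference in that sum came from THY1, a surface glycoprotein gene, and COL3A1, a fibrillar collagen gene, neither of which was called. In bulk libraries fewer cells of a type and less RNA per cell cannot be told apart.

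FN1 and 1 receptor subunit gene, ITGA8, rose in HAND1_OE, and no member was called lower. At an unadjusted p under 0.05 in limma, 3 of the 8 tested stood higher (FN1, ITGA8 and ITGA9) and 1, ITGA4, stood lower. Of the 10 members, 8 passed the filter of at least 1 FPKM in at least 2 libraries and were tested with all other genes, and 2 of the 8 were called higher at an adjusted p under 0.05. Over all 14622 genes tested, 299 were called higher, which is 2.04%, and 309 lower, which is 2.11%. At an unadjusted p under 0.05 in limma, 997 of all genes tested stood higher and 1554 stood lower. The 8 members had a median log2 change of 0.38, and all tested genes a median of -0.08. Log2 changes are of FPKM + 1 throughout, HAND1_OE minus Control, which understates the change of genes at low levels. ITGB6 and ITGB8 were below the filter.

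**Figure D1:**
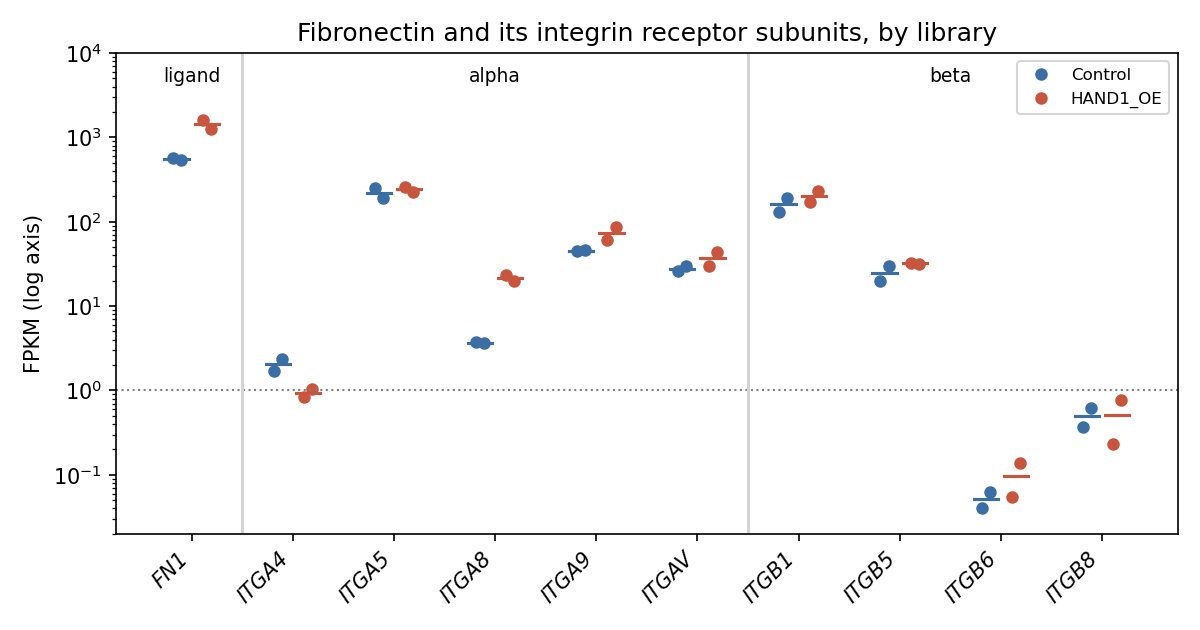
FPKM on a log axis of the 10 members in each of the 4 libraries, with points for libraries and short lines for group means (n = 2), Control in blue and HAND1_OE in red. FN1 and ITGA8 show the widest gaps between groups, ITGA5 and ITGB1 have overlapping groups, and ITGB6 and ITGB8 lie below 1 FPKM (dotted line) in every library.

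FN1, on the minus strand at chr2:215360440-215436172 (GRCh38, as all positions here), stood at 574 and 541 FPKM in the pair of Control libraries and 1613 and 1266 FPKM in the HAND1_OE pair. Both HAND1_OE libraries were far above both Control libraries, and they differed more from each other than the Control libraries did. The mean was 557 ± 23.7 in Control and 1440 ± 245 in HAND1_OE (SD, n = 2), which is 2.58-fold. The log2 change was 1.36 with a 95% interval of 0.87 to 1.85 (SE 0.198) and an adjusted p = 0.0280 in limma's moderated test across all genes. By level FN1 ranked 135 and 125 among all genes in Control and 39 and 47 in HAND1_OE. Its share of all FPKM was 0.0947% and 0.101% in Control and 0.279% and 0.232% in HAND1_OE. The call is close to the threshold. Without any 1 of the 4 libraries the log2 change was between 1.18 and 1.53 and the adjusted p between 0.0516 and 0.112, so FN1 was then no longer called. It was also not called when every gene above 0 was tested (adjusted p = 0.207), or when a trend with the length and GC of the longest transcript was removed (log2 change 1.26, adjusted p = 0.0591), an alternative added after seeing the data. The groups did not overlap, but with 2 libraries each an exact permutation test cannot reach 0.05. The rise stood beside the fall of the blood markers and the change in the mesenchyme markers given above. Of the 7 mesenchyme markers tested, 5 stood higher and 1, COL1A2, stood lower at an unadjusted p under 0.05 in limma. Their sum was higher, while COL1A1 was also lower without being called. The part of these markers in the rise of FN1 was not tested. FN1 is itself among the genes that the study followed as mesenchymal in these cells. The paper reports that overexpressing HAND1 was enough to raise FN1. It also reports that an inhibitor of TGF-beta signaling no longer lowered FN1 once HAND1 was overexpressed.

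Beta1 is the shared chain of most fibronectin receptors, and ITGB1, at chr10:32900319-33005792 on the minus strand, was the highest beta subunit gene. It stood at 130 and 194 FPKM in the pair of Control libraries and 169 and 234 FPKM in the HAND1_OE pair. The groups overlapped, since the higher Control library was above the lower HAND1_OE library. The log2 change was 0.33 with a 95% interval of -0.32 to 0.97, and ITGB1 was not called (adjusted p = 0.623, limma). ITGB1 thus passed no test of change, although the interval allows for a rise close to 1 log2 unit.

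ITGA5, at chr12:54395261-54419460 on the minus strand, encodes the alpha chain of alpha5beta1, the receptor that assembles fibronectin fibrils. It was the highest receptor subunit gene in the mean of both groups, with 250 and 189 FPKM in Control and 258 and 227 FPKM in HAND1_OE. The 4 values interleaved. Its log2 change was 0.15 with a 95% interval of -0.33 to 0.63 and an adjusted p = 0.785 in limma. The upper end of that interval lies below the lower end of the interval of FN1.

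ITGA8 encodes the alpha chain of alpha8beta1, a receptor for the RGD loop of fibronectin and of nephronectin that is known from kidney development and from smooth muscle and mesangial cells. The gene, at chr10:15513949-15720125 on the minus strand, stood at 3.75 and 3.63 FPKM in the pair of Control libraries and 23.4 and 19.7 FPKM in the HAND1_OE pair. The libraries within each group lay close together and the groups were far apart. The mean rose from 3.69 ± 0.0791 to 21.5 ± 2.59 FPKM (SD, n = 2), which is 5.83-fold. This rise too stood beside the fall of the 6 blood markers tested and the change in the mesenchyme markers. Of the latter, PDGFRB and LUM rose, and 5 of the 7 tested stood higher at an unadjusted p under 0.05 in limma. COL1A2 stood lower at that threshold, and neither it nor COL1A1, which was also lower, was called. The part of these markers in the rise of ITGA8 was not tested. The log2 change was 2.26 with a 95% interval of 1.84 to 2.67 (SE 0.167) and an adjusted p = 0.00700 in limma. It was the rise that ranked 51 among the 14622 genes tested. ITGA8 was also called when any 1 of the 4 libraries was left out, and was not called when every gene above 0 was tested (adjusted p = 0.153). Even after this rise ITGA8 remained below ITGA5, ITGA9 and ITGAV in both HAND1_OE libraries.

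ITGAV encodes alphav, which pairs with several beta chains into RGD-binding receptors for fibronectin, vitronectin and latent TGF-beta. At chr2:186590065-186680901 on the plus strand, it stood at 25.9 and 29.9 FPKM in the pair of Control libraries and 30.2 and 43.4 FPKM in the HAND1_OE pair. The groups did not overlap, but the gap between the nearest libraries was far smaller than the distance between the HAND1_OE libraries. The log2 change was 0.37 with a 95% interval of -0.16 to 0.90 and an adjusted p = 0.472 in limma.

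Among the beta partners of alphav, ITGB5, at chr3:124761948-124901418 on the minus strand, encodes the chain of the vitronectin and fibronectin receptor alphavbeta5. It stood at 19.7 and 29.7 FPKM in the pair of Control libraries and 32.7 and 31.4 FPKM in the HAND1_OE pair. The groups did not overlap, and the higher Control library lay just below both HAND1_OE libraries. The log2 change was 0.39 with a 95% interval of -0.15 to 0.94 (adjusted p = 0.458, limma). ITGB8, at chr7:20330702-20415754 on the plus strand, encodes a chain that binds latent TGF-beta with alphav. It had 0.371 and 0.621 FPKM in Control and 0.233 and 0.779 FPKM in HAND1_OE, so the Control values lay inside the HAND1_OE range. ITGB6 encodes an epithelial chain of chromosome 2 with the same ligand, and its highest value over the 4 libraries was 0.139 FPKM. Neither passed the filter. When every gene above 0 was tested, the log2 change was 0.06 for ITGB6 (adjusted p = 0.671, limma) and -0.0095 for ITGB8. ITGB8 is overlapped by the antisense gene AC004130.1, listed at 0.250 to 0.595 FPKM, about the level of ITGB8 itself. The library kit did not mark strand, so reads of these genes cannot be told apart where they overlap.

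Of the alpha chains that bind sites other than RGD, ITGA9 and ITGA4 differed in direction. ITGA9, at chr3:37452115-37823514 on the plus strand, encodes the alpha9 chain, which binds the EDA segment and tenascin and is known from lymphatic valves. It stood at 44.6 and 45.8 FPKM in the pair of Control libraries and 60.9 and 86.3 FPKM in the HAND1_OE pair. The groups did not overlap, with a log2 change of 0.67, a 95% interval of 0.17 to 1.17 and an adjusted p = 0.164 in limma, so ITGA9 was not called. The library kit did not mark strand, so reads of the antisense gene ITGA9-AS1, listed at 4.60 to 5.34 FPKM, cannot be told apart from those of ITGA9 where they overlap.

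ITGA4 encodes the alpha4 chain, which binds the LDV site of fibronectin and the endothelial protein VCAM1 and is known from the homing of blood progenitors. At chr2:181457202-181536187 on the plus strand, it stood at 1.70 and 2.37 FPKM in the pair of Control libraries and 0.835 and 1.04 FPKM in the HAND1_OE pair. It was the only one of the 8 tested members with a lower fitted value in HAND1_OE, and its groups did not overlap. The log2 change was -0.64 with a 95% interval of -1.19 to -0.09 and an adjusted p = 0.223 in limma, so it was not called. The 6 blood markers tested, which fell, moved in the same direction, and their part in the ITGA4 values was not tested.

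Groups that did not overlap were common in these data. They were seen in 6 of the 8 tested members (FN1, ITGA4, ITGA8, ITGA9, ITGAV and ITGB5) and in 46.3% of all tested genes. Of the 6 members, 5 were higher and 1 was lower in HAND1_OE.

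**Figure D2:**
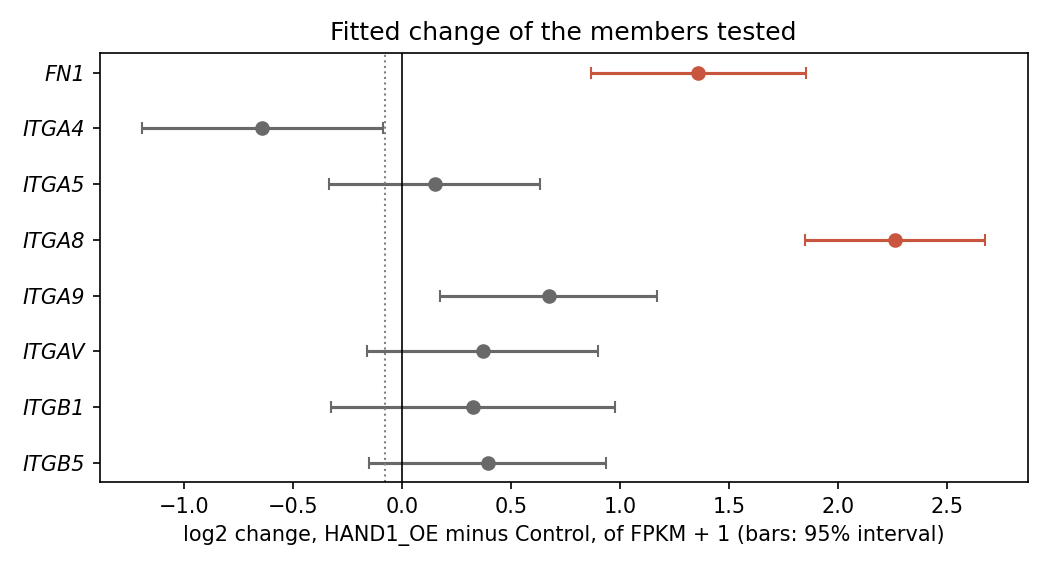
Log2 change of FPKM + 1, HAND1_OE minus Control, for the 8 members tested, with 95% intervals from the limma fit (2 libraries a group), called members in red and the median of all genes (-0.08) as a dotted line. The intervals of FN1 (1.36) and ITGA8 (2.26) lie farthest above zero, and that of ITGA9 (0.67), which was not called, also lies above it. Those of ITGA5, ITGAV, ITGB1 and ITGB5 include zero, and ITGA4 alone lies below it.

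The order of the 10 genes by mean FPKM was the same in both groups. FN1 came first, followed by ITGA5, ITGB1, ITGA9, ITGAV, ITGB5, ITGA8, ITGA4, ITGB8 and ITGB6. In both groups the libraries of ITGA5 and ITGB1 overlapped, as did those of ITGAV and ITGB5, so the order within these pairs was not separated from the spread between libraries. All other neighbours in the order were apart in both groups.

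The ratio of ligand to receptor RNA was then taken within each library, which removes the scaling of the library. FN1 was 2.30 and 2.86 times as high as ITGA5 in Control and 6.27 and 5.59 times as high in HAND1_OE. Against ITGB1 the ratio was 4.43 and 2.79 in Control and 9.54 and 5.42 in HAND1_OE. Both ratios were higher in each HAND1_OE library than in each Control library. The same separation was seen against ITGA4, ITGA9, ITGAV, ITGB5 and ITGB8, and it was narrow for ITGB8 and ITGA9. All these ratios hold the same FN1 values, so they carry the rise of FN1 and are not separate results about the receptors. The share of all genes against which FN1 would separate in this way was not computed. For ITGB8, which was below 1 FPKM in every library, the ratio was 1546 and 871 in Control and 6925 and 1625 in HAND1_OE. For ITGA9 it was 12.9 and 11.8 in Control and 26.5 and 14.7 in HAND1_OE. Against ITGB6, which was near 0, the groups overlapped. The ratio to ITGA8 went the other way. FN1 was 153 and 149 times as high as ITGA8 in Control and 69.1 and 64.3 times as high in HAND1_OE. Over all 9 subunits, log2(FPKM + 1) of FN1 exceeded the mean of the subunits by 5.41 and 5.15 in Control and by 6.52 and 5.97 in HAND1_OE, an average difference between groups of 0.961. As a score over the chosen genes it was given no test.

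**Figure D3:**
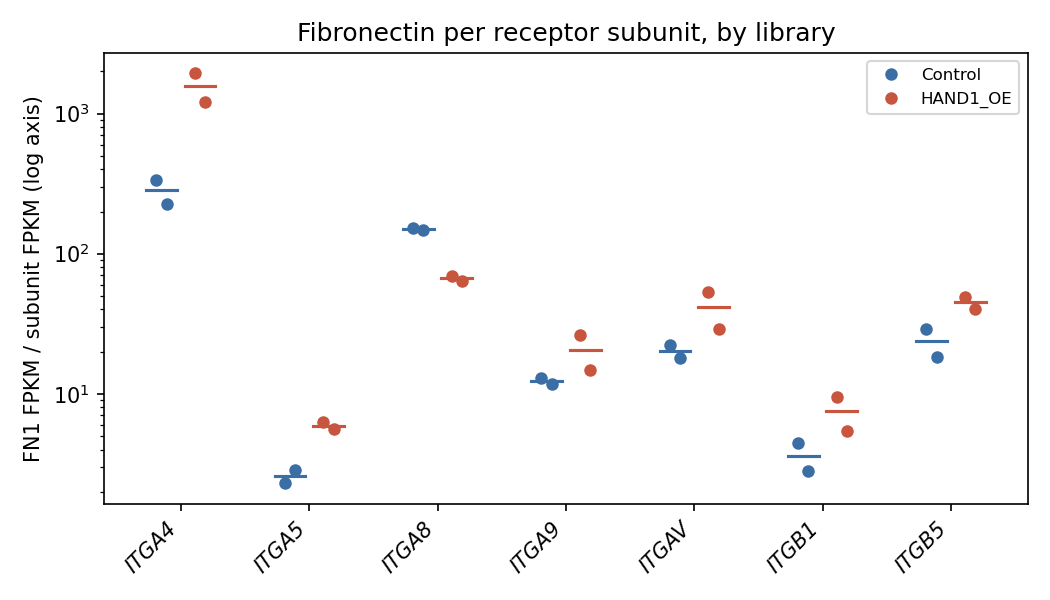
FN1 FPKM divided by the FPKM of each of the 7 receptor subunits tested, on a log axis, in each library, with points for libraries and short lines for group means (n = 2). The ratio to ITGA8 goes from 153 and 149 in Control to 69.1 and 64.3 in HAND1_OE, while for the other 6 subunits both HAND1_OE libraries lie above both Control libraries. All 7 ratios share the FN1 values.

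The alpha chains that compete for beta1 were compared as a group. The FPKM of the 12 alpha genes whose products pair with beta1 summed to 371 and 325 in Control and to 436 and 455 in HAND1_OE. Per FPKM of ITGB1 the sum was 2.86 and 1.68 in Control and 2.58 and 1.95 in HAND1_OE, and the groups overlapped. ITGA5 made up 67.4% and 58.3% of the sum in Control and 59.1% and 49.8% in HAND1_OE, also with overlap. The share of ITGA8 was 1.01% and 1.12% in Control and 5.36% and 4.33% in HAND1_OE, with the groups well apart. There was 66.8 and 52.1 times as much ITGA5 as ITGA8 in Control and 11.0 and 11.5 times as much in HAND1_OE. This ratio and the ITGA8 share hold the ITGA8 values given above, so they carry its rise and are not separate results. For the non-RGD chains, the ratio of ITGA9 to ITGA4 was 26.2 and 19.3 in Control and 73.0 and 83.1 in HAND1_OE. Neither of these genes was called, and ITGA4 was at a low level, with 0.835 and 1.04 FPKM in HAND1_OE. The ratio only combines their changes given above. These are ratios of RNA and do not give the amounts of receptor at the surface.

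The remaining integrin genes were examined as a list of 17 subunits, of which 12 were tested, 3 rose and 4 fell (median log2 change 0.18). The 3 that rose, ITGA1, ITGA2 and ITGA11, encode alpha chains that bind collagen with beta1. The other such chain, ITGA10, was not called, with 13.14 and 17.96 FPKM in Control and 16.01 and 19.84 FPKM in HAND1_OE and overlapping groups (log2 change 0.20, adjusted p = 0.725, limma). ITGA1, a collagen IV receptor chain, went from 4.37 and 4.97 FPKM to 15.02 and 20.18 FPKM (log2 change 1.70, SE 0.198, adjusted p = 0.0159, limma). ITGA11, a chain known from fibroblasts, went from 0.358 and 0.327 FPKM to 2.47 and 2.61 FPKM. ITGA2 had a log2 change of 1.35. The largest falls were those of ITGA2B and ITGB3, which together form the platelet fibrinogen receptor and also bind fibronectin. ITGA2B fell from 92.4 and 115 FPKM to 10.3 and 5.33 FPKM (log2 change -3.62, adjusted p = 0.00730, limma). ITGB3, also a partner of alphav, fell from 10.4 and 17.8 FPKM to 0.804 and 0.695 FPKM (log2 change -3.07, adjusted p = 0.00851, limma). Both are megakaryocyte genes, and they fell beside the 6 blood markers, whose part in these falls was not tested. ITGB2, the leukocyte beta chain, fell by 1.49 on the log2 scale. ITGA7, a laminin receptor chain, fell by 1.10. ITGB7, the other partner of alpha4, was between 0.0348 and 0.137 FPKM and was not tested.

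**Figure D4:**
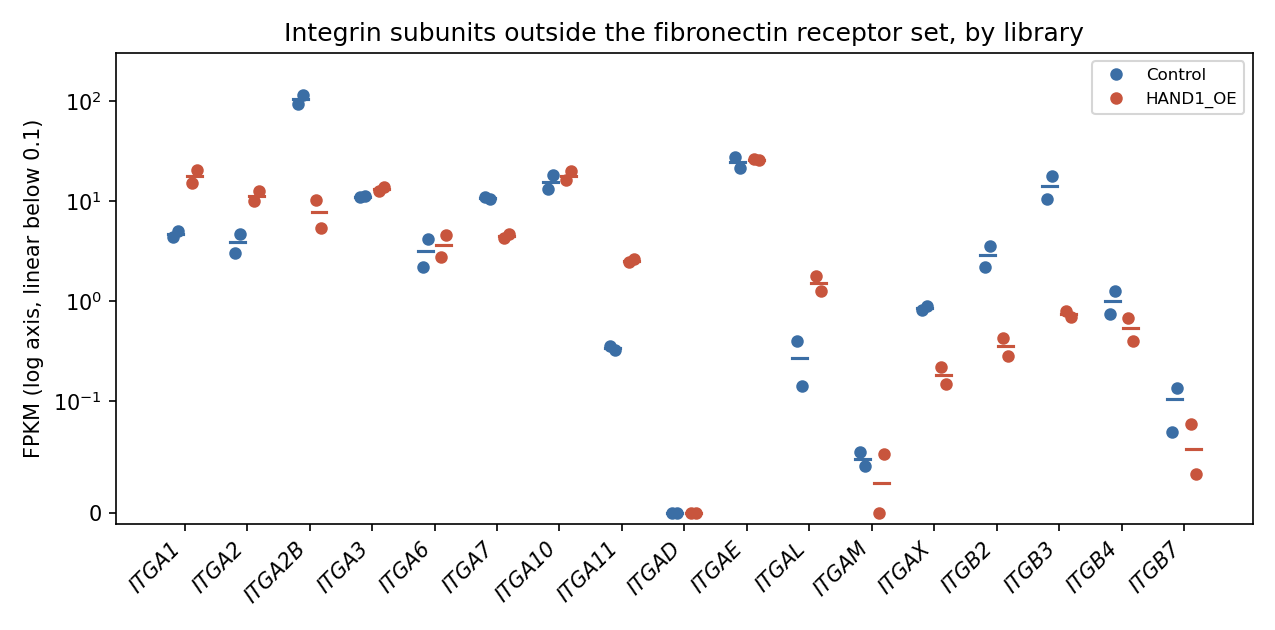
FPKM of the 17 integrin subunit genes outside the fibronectin receptor set in each library, on a log axis that is linear below 0.1, with points for libraries and short lines for group means (n = 2). ITGA1, ITGA2 and ITGA11 are higher in both HAND1_OE libraries, and ITGA2B, ITGB3, ITGB2 and ITGA7 are lower, with ITGA2B falling from 92.4 and 115 to 10.3 and 5.33.

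Other ligands of the same integrins were listed next, 19 genes of which 15 were tested. Among them 3 rose and 2 fell (median log2 change 0.11). SPP1, which encodes osteopontin, a ligand of alphav, alpha8 and alpha9 integrins, went from 0.379 and 2.09 FPKM to 26.2 and 30.1 FPKM (log2 change 3.82, SE 0.385, adjusted p = 0.0104, limma). POSTN, periostin, went from 0.825 and 0.922 FPKM to 6.70 and 6.01 FPKM (log2 change 1.97). FBN1, the microfibril protein fibrillin-1, had a log2 change of 1.55. MADCAM1, a ligand of alpha4beta7, fell by 1.74 on the log2 scale. EMILIN1, an elastic fibre protein that binds alpha4 and alpha9 integrins, had a log2 change of -0.99 and was also called. All 3 ligands that rose remained far below FN1 in FPKM.

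The proteins that assemble or cross-link fibronectin were mostly not called. Of 18 such genes, all tested, 2 rose and none was called lower (median log2 change 0.24). At an unadjusted p under 0.05 in limma, 6 of the 18 stood higher and none stood lower. Over all 14622 genes tested, 997 stood higher and 1554 lower at that threshold. The 2 called were FBN1 and BMP1, a procollagen protease gene that went from 15.7 and 15.4 FPKM to 31.6 and 35.4 FPKM (log2 change 1.06, adjusted p = 0.0250, limma). Among the 16 not called was SDC4, a syndecan that acts with alpha5beta1 on fibronectin, at 9.75 and 13.5 FPKM in Control and 22.1 and 22.6 FPKM in HAND1_OE. It was named after its values were seen. Inside the cell, integrins bind actin through talins, kindlins and the ILK-PINCH-parvin complex. Of 35 genes of this adhesion complex, 34 were tested, 2 rose and 1 fell (median log2 change 0.13). At an unadjusted p under 0.05 in limma, 7 stood higher and 1 stood lower. TNS3, a tensin that binds beta chains, went from 8.95 and 7.93 FPKM to 38.7 and 31.4 FPKM (log2 change 1.93, SE 0.173, adjusted p = 0.00851, limma). LIMS1, which encodes PINCH1, had a log2 change of 0.98. FERMT3, the kindlin of blood cells, fell from 47.6 and 49.8 FPKM to 15.9 and 12.9 FPKM (log2 change -1.70), beside the blood markers.

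Upstream sequence is shown for the 2 members that rose. RefSeq promoters (GRCh38.p14) were matched for 9 of the 10 members, 13 promoters in all, and the 250 bases before each start were searched. HAND1 is a bHLH factor, a class that binds the E-box CANNTG. This palindromic motif, which reads the same on both strands, was found in 5 of the 13 promoters, 1 for each of 5 members, and in 61.8% of all promoters. The FN1 stretch searched did not hold it, which says only that these letters are not in this window and nothing of where HAND1 binds. The paper reports that HAND1 bound directly at the promoter region of FN1, which this search of letters does not address. The FN1 stretch at chr2:215436173-215436318, on the minus strand, holds the cAMP response element TGACGTCA, also palindromic, 183 bases before the RefSeq start. That element, chosen after the sequence was read, is shown in capitals and occurs in 1.65% of all promoters.
FN1: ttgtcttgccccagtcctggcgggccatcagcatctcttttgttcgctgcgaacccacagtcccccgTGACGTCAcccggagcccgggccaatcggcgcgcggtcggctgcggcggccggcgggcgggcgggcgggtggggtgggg
ITGA8: cgctccagccacCAGCTGggccgcccggga
The ITGA8 stretch, chr10:15720049-15720078 on the minus strand, holds an E-box in capitals 144 bases before the RefSeq start, and lies within the gene as GENCODE 29 annotates it, since the GENCODE start is 203 bases further upstream. These matches describe the letters and no binding was measured here.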

How the data were processed

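The authors deposited 1 table with a value per gene and library for 2 Control and 2 HAND1_OE libraries of CD31+ cells, grouped here by sample title. The deposited values, whose unit the table does not state, were taken to be FPKM, which the study plots for these cells. The submitters' processing notes name BWA, Bowtie, RSEM and hg19, without versions, but the coordinates of the rows match GRCh38. Of 58365 rows, 45 for Y copies and 91 with a repeated gene ID were left out. All columns of values were matched to a sample.

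A pseudocount of 1 FPKM was added before taking log2, and a gene was kept where 2 or more libraries reached 1 FPKM. Every kept gene entered 1 two-sided fit of HAND1_OE against Control, made with limma 3.58.1 under R 4.3.3 and its trended prior variance. Adjusted p-values are Benjamini-Hochberg values over the whole set of kept genes, and a gene under 0.05 was called. The fit was run on data simulated from the observed means and its own fitted spreads, with known changes larger than that of FN1. That run checked the working of the fit and does not bear on the calls made here. Antisense and overlapping genes were read from GENCODE 29, and promoters from RefSeq. FPKM holds no counts, so no interval for counting error was computed.

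Members and gene lists were chosen with earlier results of these data known. The text names all members, HAND1, PECAM1, ITGA2B, ITGB3, ITGB7 and up to 4 called genes per list with the largest change. Markers at or near 0, the collagen genes, THY1, ITGA10 and SDC4 were named after their values were seen. The alternatives were another pseudocount, 2 other filters, quantile and median-ratio scaling, no trend, a replicate block, and leaving out each library. Protein-coding genes alone and removal of a trend with the length and GC of transcripts, by the longest or by the median transcript and with the block, were added after seeing the data.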

Additional observations from a re-analysis of the deposited data

How the results depend on the processing

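With every gene above 0 tested, limma called 0 genes higher and 0 lower, while by unadjusted p under 0.05 the genes tested held 1458 that were higher and 2352 that were lower. FN1 (log2 change 1.36, adjusted p = 0.207) and ITGA8 (2.26, adjusted p = 0.153) were then not called, leaving 0 members called (3 at an unadjusted p under 0.05). Removing the trend on length and GC of the longest transcript, added after seeing the data, left 1 member called and FN1 at 1.26 (adjusted p = 0.0591), whereas with the median transcript FN1 was at 1.32 (adjusted p = 0.0313). Without 1 library at a time, 134 to 266 genes were called higher and 137 to 309 lower, with the fewest without Control replicate 1 (141 and 144) or Control replicate 2 (134 and 137), and 1 member, ITGA8, was called each time. FN1 then ranged from 1.18 to 1.53 and was not called. The lone library of a group was there assumed to vary like the others. ITGA5 then ranged from -0.0498, without Control replicate 2, to 0.349, without Control replicate 1. Of 89 alternative values of the 6 tested members not called, 87 kept direction and side of the threshold.

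Libraries of the same number deviated together with a correlation of 0.383, but only 2 pairs exist and the labels do not say what a number marks. With the replicate block 597 genes were called higher and 712 lower, FN1 had an adjusted p = 0.0132, and the block changed no call of a member. With the block and the longest-transcript trend removed, 803 were called higher and 1066 lower, FN1 had an adjusted p = 0.00581 and ITGA9 was called (0.57, adjusted p = 0.0465). The difference of FN1 from the mean of its receptors kept its direction, from 0.687 to 1.23 when 1 library was left out. It was not computed under the other filters, quantile scaling, the replicate block or the length and GC removal, which leave ITGB6 and ITGB8 without a value or change no mean. The causes of these shifts were not tested. With 2 libraries a group and FPKM without counts, differences in the subunits below 1 log2 unit were often not separable from the spread.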

Other observations

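Among 1803 tested genes with a mean of at least 50 FPKM, the 3 whose centred log2 values over the 4 libraries lay nearest to those of FN1 were S100A11, VEGFA and LMNA, as a description of these libraries. S100A11, a calcium-binding protein gene, stood at 414 and 344 FPKM in the pair of Control libraries and 1084 and 935 FPKM in the HAND1_OE pair (root mean square difference from FN1 0.0840 on the log2 scale). VEGFA, the main angiogenic growth factor gene, stood at 41.5 and 32.6 FPKM in the pair of Control libraries and 105 and 87.5 FPKM in the HAND1_OE pair (difference 0.0946). LMNA, which encodes the nuclear lamins A and C, stood at 57.9 and 64.5 FPKM in the pair of Control libraries and 168 and 131 FPKM in the HAND1_OE pair (difference 0.0960).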
